A study of Mus musculus with 9 samples.

Results

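Eukaryotic translation initiation factors are the proteins that bring the small ribosomal subunit, the initiator transfer RNA and a messenger RNA together at a start codon. Their transcripts were examined here in pmel1 CD8+ T cells taken from mice given peptide with agonist antibody to CD27, antibodies to PD-1 and PD-L1, or all of these. The genes were those whose symbol on the array begins with Eif1, Eif2, Eif3, Eif4, Eif5 or Eif6, which includes the kinases of eIF2 and the eIF4E-binding inhibitors, and pseudogenes were set aside. By this rule 53 probe sets were found. Of these, 48 named 1 gene and gave 47 genes of the 30142 genes measured, and 5 were shared with other genes and are described apart. A further 2 probe sets carried older Argonaute symbols that begin with Eif2c, and those proteins act in RNA silencing, not in initiation. The complexes were complete except for Eif1, Eif2s1, Eif3g, Eif4a3l2 and Eif4g1, which were not analysed here, so that nothing is said of the eIF1, eIF2 alpha, eIF3g and eIF4GI genes.

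Initiation proceeds in steps that give the factors their numbers. eIF2 carries the initiator transfer RNA, eIF2B recharges eIF2 with GTP, and kinases that phosphorylate eIF2 alpha in stress block that recharging. eIF3 is a large scaffold on the small subunit, eIF4F (the cap-binding protein eIF4E, the scaffold eIF4G and the RNA helicase eIF4A) loads the messenger RNA, and eIF4E-binding proteins hold eIF4E back until mTOR phosphorylates them. eIF1 and eIF1A guard start codon choice, eIF5 and eIF5B complete it and join the large subunit, and eIF6 keeps free large subunits apart from small ones. T cells that leave rest raise protein synthesis strongly, and this machinery is controlled in them by antigen receptor, costimulatory and mTOR signals.

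A pmel1 T cell has a transgenic receptor for a gp100 peptide. Thy1.1+ pmel1 CD8+ cells had been transferred into naive congenic mice, and every recipient had 100 µg of human gp100 peptide intravenously with 400 µg of antibody in all. The combination group had 200 µg of the CD27 agonist AT124, 100 µg of anti-PD-1 (RMP1-14) and 100 µg of anti-PD-L1 (10F.9G2). The anti-CD27 group had 200 µg of AT124 and the anti-PD-1/L1 group 100 µg of each blocking antibody, both made up with 200 µg of isotype control. Each group was 3 mice, and cells from the spleen of each mouse were sorted on day 4 and measured on 1 whole-transcript array. A group given peptide and only isotype control was not analysed here, so every comparison is between treatments. The question of the first comparison is what PD-1/L1 blockade added to CD27 agonism, and of the second what CD27 agonism added to blockade. The third sets the 2 single treatments side by side.

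Values are log2 levels made by RMA, where 1 unit is a doubling of signal, and a gene was called where its adjusted p in limma's fit over all genes was under 0.05. Levels are compared between groups within 1 gene, not between genes, since each probe set has its own brightness. The anti-PD-1/L1 arrays stood apart from the other 6. Background control probe sets averaged 3.25 ± 0.04 (SD, n = 3) on combination arrays, 3.27 ± 0.06 on anti-CD27 arrays and 4.06 ± 0.08 on anti-PD-1/L1 arrays, and positive control probe sets 6.81 ± 0.04, 6.70 ± 0.02 and 5.75 ± 0.19. For each difference from anti-PD-1/L1 the exact two-sided permutation p was 0.1, the smallest that 3 arrays against 3 allow. The median SD of an initiation factor within a group was 0.070 on combination arrays, 0.047 on anti-CD27 arrays and 0.216 on anti-PD-1/L1 arrays. Of markers of the sorted cells (Cd8a, Cd8b1, CD3 chains, Thy1 and the like), 6 were measured, and their mean ran from 10.0 to 10.1 in the combination, 10.2 to 10.3 in anti-CD27 and 8.90 to 9.45 in anti-PD-1/L1. These genes did not move together. Cd8a, Cd8b1, Cd3e and Thy1 were lower in anti-PD-1/L1, with Cd3e at 10.95, 11.06 and 8.89 in these groups. Cd3d was highest there, at 9.40, 9.63 and 9.97, and Cd3g differed little, at 9.60, 9.70 and 9.57. Lists for B cells, macrophages, dendritic cells, neutrophils, NK cells, CD4 T cells and erythroid cells had mean levels of at most 4.08 on any array, and each of these lists had its lowest anti-PD-1/L1 array above every other array. Single genes stood higher, among them Zbtb7b, a CD4 lineage factor, with group means of 5.60 on combination arrays, 5.78 on anti-CD27 arrays and 6.34 on anti-PD-1/L1 arrays, and Cd79b, a B cell receptor chain, at 5.40, 5.64 and 5.73. The part of these array differences in the results with anti-PD-1/L1 was not tested, and array behaviour and treatment cannot be told apart there. In bulk samples such as these, fewer cells of a type and less RNA per cell cannot be told apart either.

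The plot of all 47 genes by array shows 2 patterns, a large contrast between anti-PD-1/L1 and the other groups and a small one between the combination and anti-CD27.

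**Figure D1:**
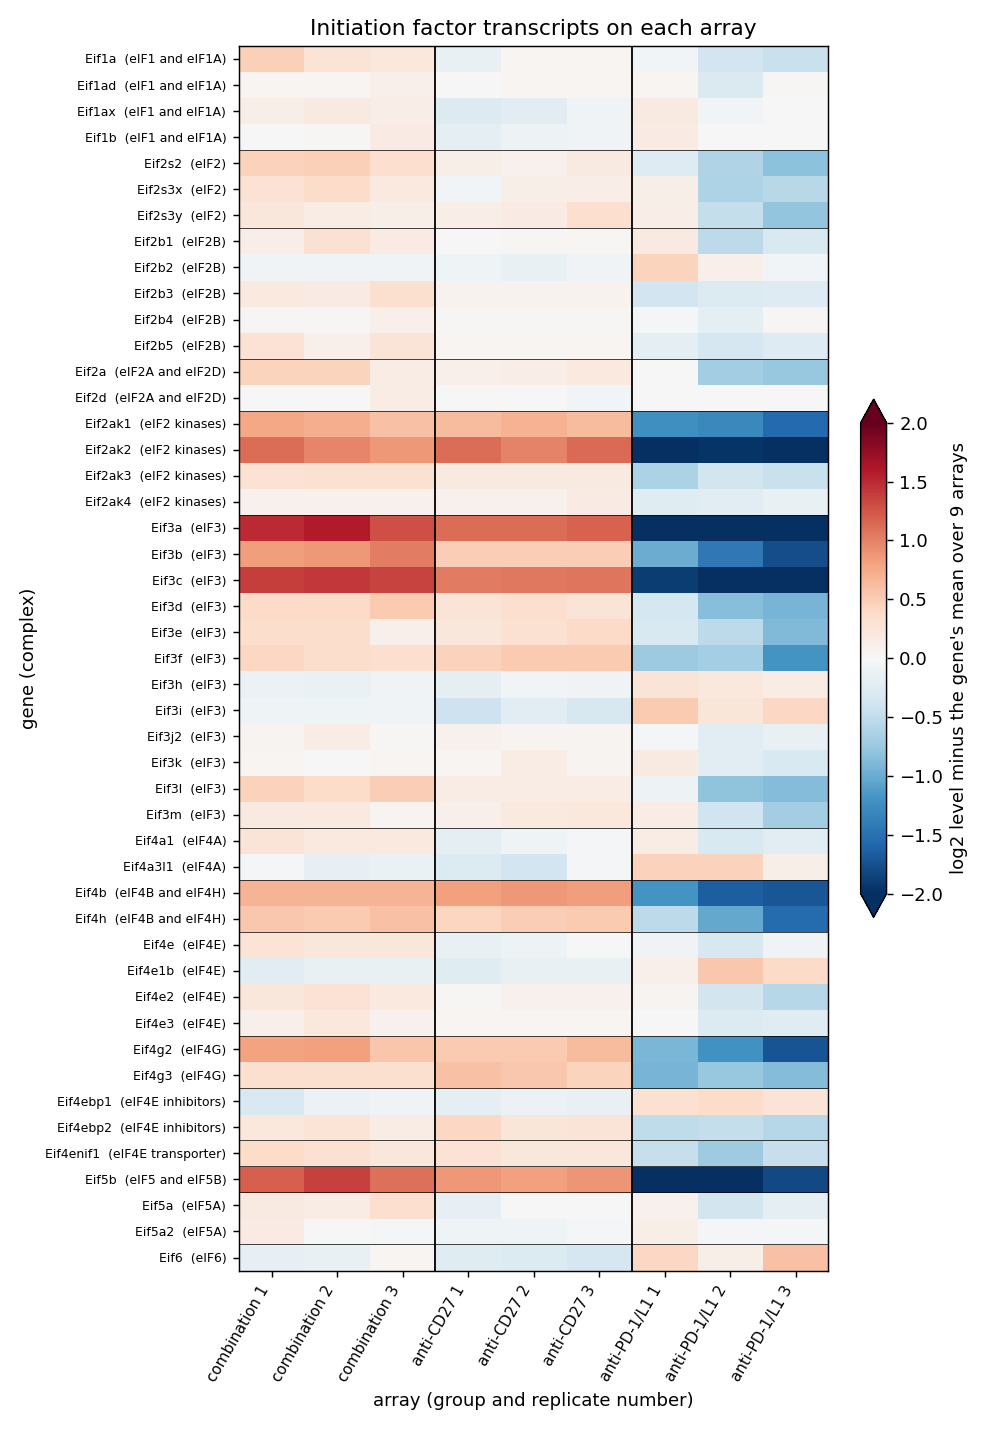
The colours give the log2 level of each of the 47 genes on each of the 9 arrays (combination, anti-CD27, anti-PD-1/L1, 3 each) minus the mean of that gene over the 9 arrays, with genes in rows by complex. Eif3a, Eif3b, Eif3c, Eif5b, Eif2ak1, Eif2ak2, Eif4b and Eif4g2 are the deepest contrasts, all low on the anti-PD-1/L1 arrays.

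Between the combination and anti-CD27, most initiation factors had a somewhat higher mean level in the combination, but each difference was small and no gene passed the test. Of the 47 genes, 36 had a positive difference, where 47.8% of all genes did, and 11 a negative one, and the median difference was 0.11 on the log2 scale, against a median of -0.00 over all genes. Positive control probe sets were 0.11 higher in the combination too (exact permutation p = 0.1, the smallest possible), and their part in this was not tested. The differences ran from 0.43 for Eif3b to -0.20 for Eif4g3. limma called 0 of 47, where 1.85% of all genes and 3.52% of the brighter 50% of genes were called. That 50% held 46 of the 47. limma's unadjusted p was under 0.05 for 14, 13 of them higher, beside 9.75% of all genes and 17.4% of the brighter 50%. In 25 genes every combination array lay above every anti-CD27 array, where 12.2% of all genes and 20.9% of the brighter 50% of genes did so. In 3 genes (Eif3f, Eif4b and Eif4g3) every combination array lay below, where 8.46% of all genes did, and in 19 the arrays overlapped.

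The fit shares 1 estimate of spread over all 9 arrays, and the anti-PD-1/L1 arrays were the most variable. With the 6 arrays of these groups fitted alone, 8 genes rose (Eif1ax, Eif2ak3, Eif2s2, Eif3b, Eif3c, Eif3l, Eif4a1 and Eif4e) and Eif4b fell, where 4.05% of all genes rose and 1.39% fell. With each array weighted by its own spread, 10 rose (Eif1a, Eif1ax, Eif2s2, Eif3a, Eif3b, Eif3c, Eif3i, Eif4a1, Eif4e and Eif5b) and Eif4g3 fell, where 6.01% of all genes rose and 2.26% fell. Eif2ak3, Eif3b, Eif4b and Eif4g3 had 1 identical value on all 3 arrays of a group, an SD of 0, so that the spread behind their calls is understated. Eif1a, Eif3a and Eif3l had 2 of 3 values equal in anti-CD27, with an SD of 0.0038 for Eif3l, and Eif3i had 2 equal in the combination. Leaving out anti-PD-1/L1 replicate 1 gave 4 calls (Eif1ax, Eif3c, Eif3l and Eif4a1, adjusted p from 0.0158 to 0.0459), leaving out its replicate 2 or 3 gave 1 each (Eif4e and Eif5b), and leaving out combination replicate 3 gave Eif3a (adjusted p = 0.0346). The share of all genes called in these leave-out fits is not given here, so their counts cannot be set against it. Quantile normalization lowered the number of positive differences to 28 and the median to 0.06.

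Among the genes of start codon selection, Eif1a and Eif1ax encode copies of eIF1A, and Eif1b encodes a close relative of eIF1. Eif1ax was at 7.17, 7.24 and 7.19 in the combination, 6.78, 6.84 and 6.98 in anti-CD27 and 7.24, 7.00 and 7.06 in anti-PD-1/L1. Its combination arrays lay above its anti-CD27 arrays, by 0.33 ± 0.08 (log2 difference ± SE, 1.26-fold, adjusted p = 0.0835). Eif1a was at 6.84, 6.64 and 6.58 in the combination, 6.23, 6.41 and 6.41 in anti-CD27 and 6.32, 5.98 and 5.92 in anti-PD-1/L1. The combination was again above anti-CD27 on every array, with a difference of 0.34 ± 0.12 (adjusted p = 0.295). Eif1b was at 6.84, 6.85 and 7.00, against 6.64, 6.73 and 6.76 in anti-CD27, while its anti-PD-1/L1 arrays at 7.00, 6.84 and 6.84 overlapped those of the combination. Eif1ad, placed with these genes here by its name only, differed by 0.03 ± 0.09 between the combination and anti-CD27.

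eIF3 subunits did not share 1 direction in this comparison. Eif3a, Eif3b, Eif3c, Eif3d, Eif3i and Eif3l had every combination array above every anti-CD27 array, Eif3f had every one below, and Eif3e, Eif3h, Eif3j2, Eif3k and Eif3m overlapped. Eif3b, which builds the scaffold near the messenger RNA entry site, was at 8.31, 8.34 and 8.50 in the combination and 7.96 on each anti-CD27 array. The difference was 0.43 ± 0.17 (1.34-fold, adjusted p = 0.395 over all 9 arrays, 0.0164 over the 6). Eif3a, the largest subunit, had the smallest adjusted p of the 47 genes, with a difference of 0.32 ± 0.07 (adjusted p = 0.0829). Eif3f, which has also been described as a partner of mTOR in muscle, was at 8.98, 8.93 and 8.90 in the combination and 9.02, 9.10 and 9.09 in anti-CD27, a difference of -0.14 ± 0.12 (adjusted p = 1).

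Of the eIF4F genes, Eif4e and Eif4a1 were higher on every combination array. Eif4e, the cap-binding protein, was at 7.04, 6.98 and 6.99 in the combination, 6.61, 6.66 and 6.77 in anti-CD27 and 6.70, 6.44 and 6.67 in anti-PD-1/L1. The combination arrays were the highest 3 of the 9, and the difference from anti-CD27 was 0.32 ± 0.08 (1.25-fold, adjusted p = 0.0943). Eif4a1, the main eIF4A helicase, was at 8.03, 7.98 and 7.97 in the combination, 7.59, 7.69 and 7.76 in anti-CD27 and 7.93, 7.48 and 7.57 in anti-PD-1/L1. It too had its highest values on the combination arrays, 0.31 ± 0.11 above anti-CD27 (adjusted p = 0.31). Eif4g3, an eIF4G scaffold, went the other way, at 6.29 on each combination array and at 6.55, 6.50 and 6.41 in anti-CD27 (difference -0.20 ± 0.06, adjusted p = 0.21). Eif4b, a cofactor of eIF4A, was at 8.92 on each combination array and at 9.07, 9.12 and 9.08 in anti-CD27 (difference -0.17 ± 0.12, adjusted p = 0.886).

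The inhibitors, kinases and transport protein differed little between these groups. Eif4ebp1, an mTOR-controlled inhibitor of eIF4E, differed by -0.01 ± 0.07, and Eif4ebp2, its relative, by -0.10 ± 0.06. For the 4 eIF2 kinases the differences ran from -0.09 for Eif2ak2 to 0.11 for Eif2ak3, with a median of 0.00. Only Eif2ak3 among the kinases had arrays that did not overlap, at 5.37, 5.39 and 5.39 in the combination and 5.27 on each anti-CD27 array. Eif4enif1, which carries eIF4E into the nucleus, differed by 0.06 ± 0.08.

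Of the 3 eIF2 genes, 2 had every combination array above every anti-CD27 array, and none passed the test. Eif2s2, the beta subunit of eIF2, was at 6.63, 6.64 and 6.50 in the combination and 6.28, 6.26 and 6.35 in anti-CD27, a difference of 0.29 ± 0.13 (adjusted p = 0.496). Of the 5 eIF2B genes, which encode the exchange factor, 4 showed the same lack of overlap, and the differences of the 5 ran from 0.03 to 0.19. Among the 4 were Eif2b2, with a difference of only 0.04 ± 0.11, and Eif2b3 and Eif2b5, each with 1 identical value on all anti-CD27 arrays. Eif5b, the GTPase of subunit joining, was at 7.14, 7.31 and 7.03 in the combination and 6.80, 6.75 and 6.82 in anti-CD27 (difference 0.37 ± 0.12, adjusted p = 0.235). Eif5a, which needs the modified amino acid hypusine and helps ribosomes over difficult stretches, was at 8.98, 8.95 and 9.14 in the combination, 8.63, 8.79 and 8.80 in anti-CD27 and 8.88, 8.43 and 8.62 in anti-PD-1/L1. Its combination arrays were above the other 6, and its difference from anti-CD27 was 0.28 ± 0.11 (adjusted p = 0.432).

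**Figure D2:**
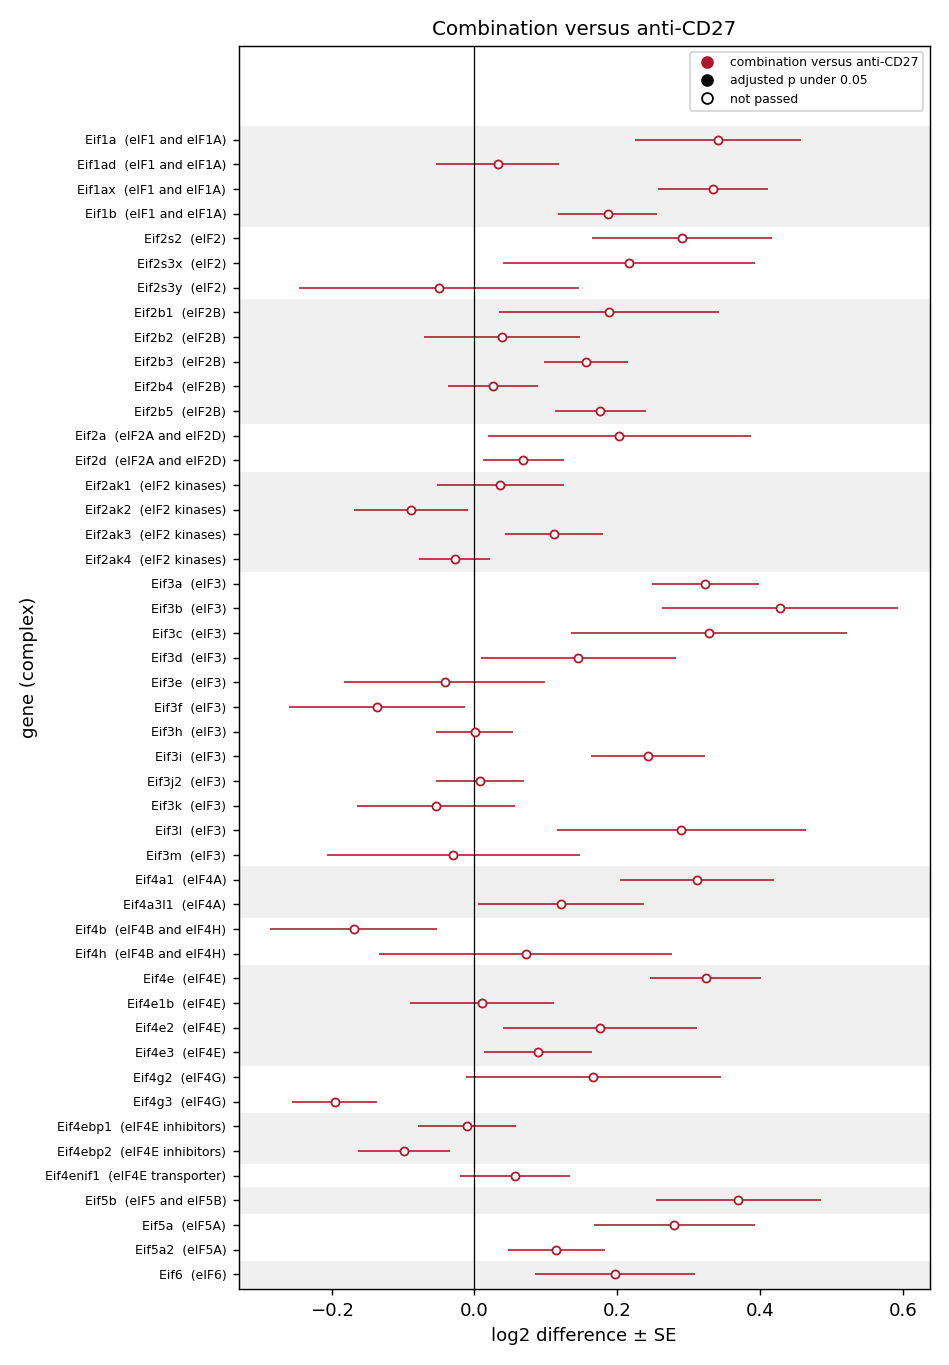
Points are the log2 difference of each of the 47 genes between the combination and anti-CD27 (3 arrays each), bars are limma's SE from the fit to all 9 arrays, and shading marks the complexes. Values to the right of 0 are higher in the combination. Open points did not pass the test, which is all 47, and 36 of them lie to the right of 0.

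Against both other groups, many initiation factors had far lower levels on the anti-PD-1/L1 arrays, but the call of a gene depended on how the arrays were scaled. The combination had 33 genes higher than anti-PD-1/L1, 6 lower and 8 that did not pass, where 19.2% of all genes were called higher and 53.1% lower. Anti-CD27 had 27 higher than anti-PD-1/L1, 8 lower and 12 that did not pass, where 17.3% and 53.5% of all genes were called. These 2 comparisons share their anti-PD-1/L1 arrays. The median difference of the 47 genes was 0.53 for the combination and 0.36 for anti-CD27, while the median over all genes was -0.26 in each. Positive control probe sets differed from anti-PD-1/L1 by 1.06 for the combination and 0.95 for anti-CD27, and background controls by -0.81 and -0.79. The part of these control differences in the results was not tested. Of the 47 genes, 46 belonged to the brighter 50% of genes, of which 37.1% were called higher and 40.2% lower in the combination, and 33.5% and 40.8% in anti-CD27. The median over that 50% was -0.02 for the combination and -0.05 for anti-CD27.

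Because the median of all genes was shifted, the counts are given on 2 other scales. The first takes that median, -0.26 in each comparison, off every difference and keeps the SE. It therefore makes positive differences larger and most negative ones smaller. All 33 genes called higher in the combination and all 27 in anti-CD27 stayed higher on it. For them only quantile normalization ended calls, so being higher on all 3 scales adds only that scale. Relative to that median, the combination had 40 of the 47 genes higher and 1 lower, where 31.8% and 25.8% of all genes were, and anti-CD27 had 36 higher and 4 lower, where 30.5% and 24.7% were. After quantile normalization the combination had 21 higher and 11 lower, where 24.0% and 27.9% of all genes were, and anti-CD27 had 21 higher and 13 lower, where 23.3% and 27.1% were. The combination had 21 genes higher on all 3 scales, where 15.0% of all genes were, and Eif4ebp1 was the 1 gene lower on all 3, where 19.5% were. Anti-CD27 had 21 genes higher on all 3 scales and 4 lower, where 14.1% and 18.9% of all genes were. A gene that did not pass on the deposited scale could pass on another. Of the 8 such genes in the combination, 7 were higher relative to the median of all genes and 5 lower after quantile normalization, and of the 12 in anti-CD27, 9 and 5. The 3 anti-PD-1/L1 arrays also differed from each other, since replicate 1 was the highest of them for 32 of the 47 genes and the median of the genes was 6.48 on replicate 1, 5.98 on replicate 2 and 5.92 on replicate 3.

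**Figure D3:**
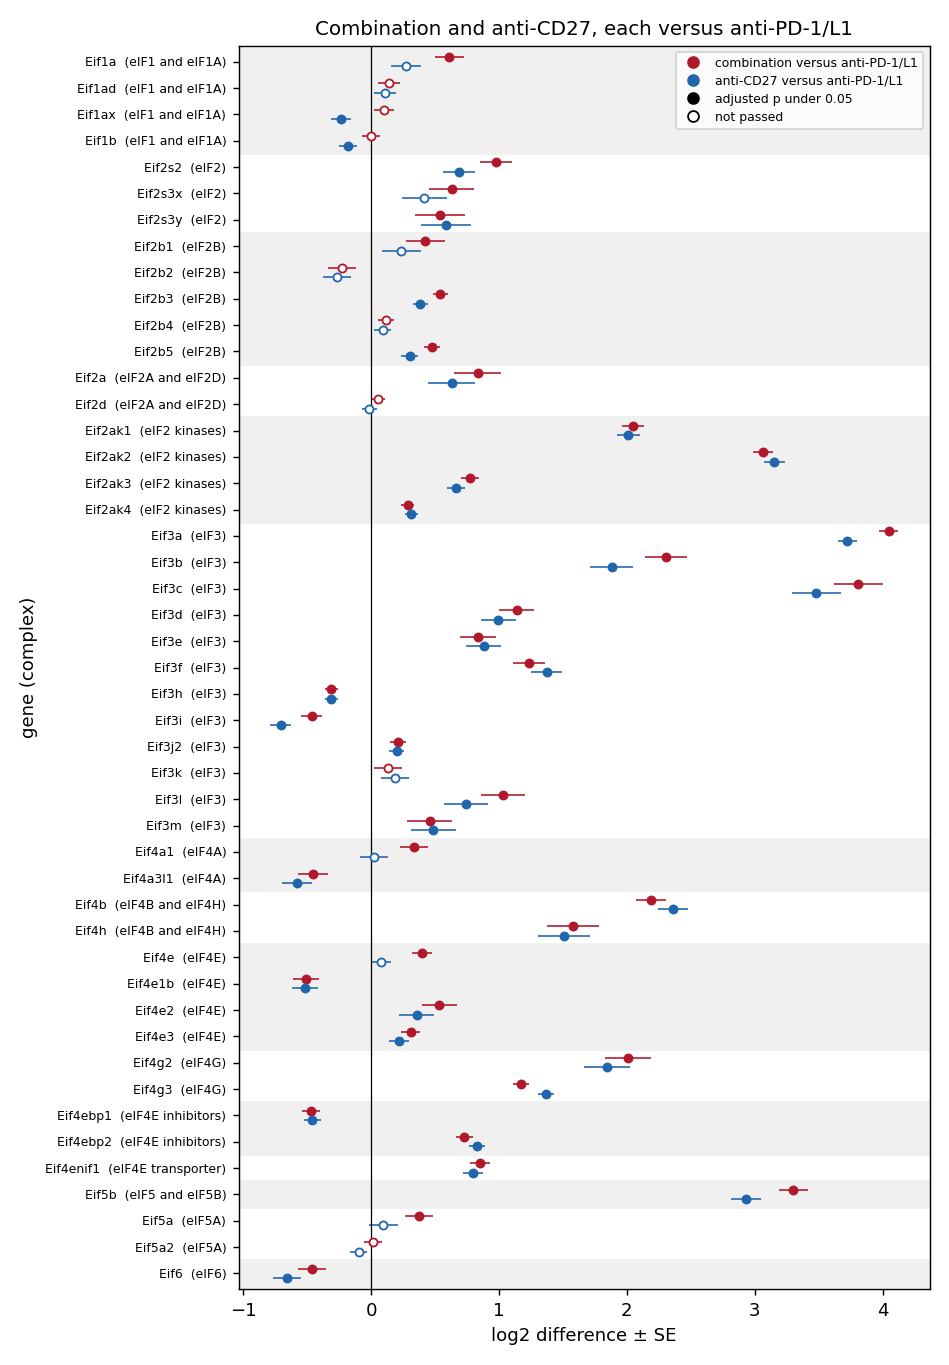
Points are the log2 differences of the 47 genes, with the combination versus anti-PD-1/L1 in red above anti-CD27 versus anti-PD-1/L1 in blue, bars are limma's SE, and filled points passed at an adjusted p under 0.05 (33 higher and 6 lower in red, 27 higher and 8 lower in blue). Eif3a, Eif3c, Eif5b and Eif2ak2 lie farthest to the right, and Eif3i and Eif6 farthest to the left in blue.

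Subunits of eIF3 held the largest differences. Of 12 measured, 9 were higher and 2 lower in each comparison, and 7 of the 9 (Eif3a, Eif3b, Eif3c, Eif3d, Eif3e, Eif3f and Eif3l) stayed higher on all 3 scales in both. Eif3a was at 9.30, 9.39 and 9.11 in the combination, 8.92, 8.92 and 8.98 in anti-CD27 and 5.27, 5.17 and 5.21 in anti-PD-1/L1. The anti-PD-1/L1 arrays were far below both other groups. Eif3a was 4.05 ± 0.07 higher in the combination than in anti-PD-1/L1 (16.5-fold, adjusted p = 1.33e-08) and 3.72 ± 0.07 higher in anti-CD27 (13.2-fold, adjusted p = 2.22e-08). Eif3c, which pairs with Eif3a in the core of the scaffold, was at 9.34, 9.37 and 9.31 in the combination, 8.99, 9.01 and 9.03 in anti-CD27 and 6.06, 5.40 and 5.13 in anti-PD-1/L1. It was 3.81 ± 0.19 higher in the combination (14.0-fold, adjusted p = 9.04e-07) and 3.48 ± 0.19 higher in anti-CD27 (11.2-fold, adjusted p = 1.66e-06), again with no overlap with anti-PD-1/L1. Eif3b was at 6.48, 6.05 and 5.70 in anti-PD-1/L1, with its other levels as given above. Its differences from anti-PD-1/L1 were 2.31 ± 0.17 for the combination (adjusted p = 7.13e-06) and 1.88 ± 0.17 for anti-CD27 (adjusted p = 2.38e-05).

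Other eIF3 subunits changed less or in the opposite direction. Eif3f was higher by 1.24 ± 0.12 in the combination and by 1.37 ± 0.12 in anti-CD27, Eif3d by 1.14 ± 0.14 and 0.99 ± 0.14, Eif3l by 1.03 ± 0.17 and 0.74 ± 0.17, and Eif3e by 0.84 ± 0.14 and 0.88 ± 0.14 (highest adjusted p = 0.00477, for Eif3l in anti-CD27). Eif3d has a second, dimmer probe set whose levels lay between 3.72 and 4.05 on all 9 arrays, and its differences of 0.13 ± 0.09 for the combination (adjusted p = 0.223) and 0.11 ± 0.09 for anti-CD27 did not pass. Eif3i, a ring-shaped partner of Eif3b, was at 8.0045, 8.0045 and 8.0208 in the combination, 7.67, 7.86 and 7.77 in anti-CD27 and 8.61, 8.32 and 8.50 in anti-PD-1/L1. Its anti-PD-1/L1 arrays were the highest 3. Its difference was -0.47 ± 0.08 for the combination, which did not pass relative to the median of all genes (-0.21, adjusted p = 0.0519), and -0.71 ± 0.08 for anti-CD27, which held on all 3 scales. Eif3h was at 10.63, 10.62 and 10.68 in the combination, 10.57, 10.69 and 10.67 in anti-CD27 and 11.01, 10.95 and 10.90 in anti-PD-1/L1, and its difference of -0.31 ± 0.05 in each comparison was -0.05 relative to the median of all genes and did not pass. Eif3m was higher by 0.46 ± 0.18 in the combination and by 0.49 ± 0.18 in anti-CD27, the first lost after quantile normalization (adjusted p = 0.127) and without any 1 of the 9 arrays but anti-PD-1/L1 replicate 1 (adjusted p up to 0.129), the second without any but that and combination replicate 3 (adjusted p up to 0.101). Eif3j2 was higher by 0.21 ± 0.06 and 0.20 ± 0.06, but after quantile normalization the sign turned, to -0.31 and -0.22. It also lost its call without combination replicate 2 (adjusted p = 0.0558) or, for anti-CD27, without anti-CD27 replicate 1 (adjusted p = 0.0545). Eif3k did not pass in either comparison on the deposited scale. Relative to the median of all genes it passed at 0.39 (adjusted p = 0.0141) and 0.45 (adjusted p = 0.00812), and without anti-PD-1/L1 replicate 1 its differences were 0.28 for the combination (adjusted p = 0.00211) and 0.33 for anti-CD27 (adjusted p = 0.00091).

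**Figure D4:**
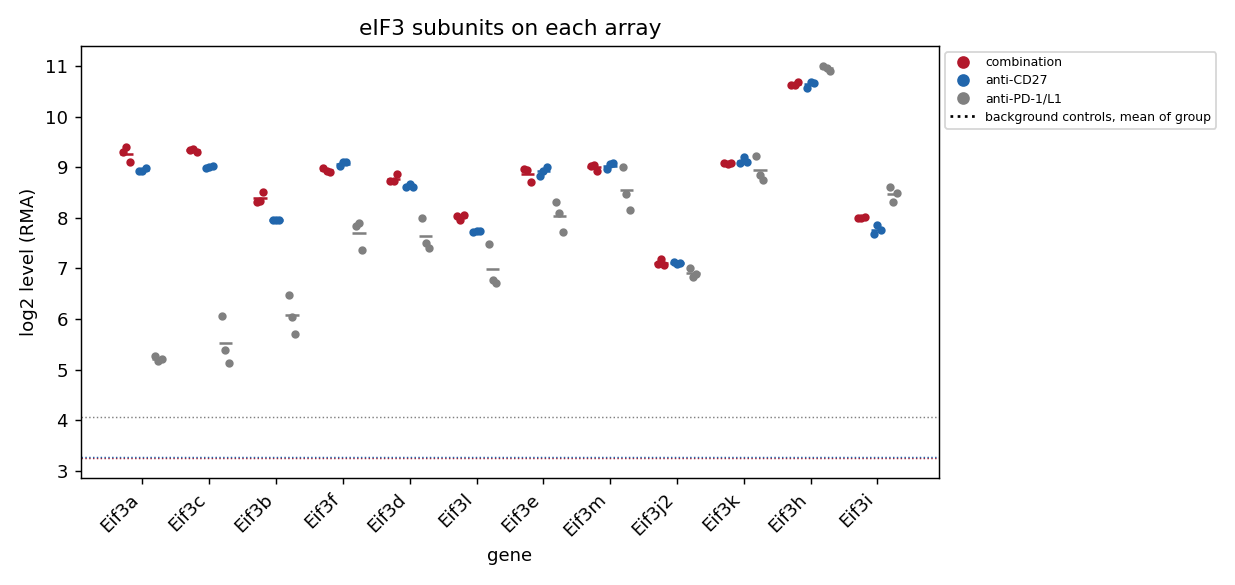
Points are the log2 levels of the 12 eIF3 genes on each array, short lines the group means, and dotted lines the mean of the background controls in each group. Genes are ordered by the difference of the combination from anti-PD-1/L1, from Eif3a, where anti-PD-1/L1 lies far below the others, to Eif3i, where it lies above them.

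The kinases that phosphorylate eIF2 alpha were all 4 higher in both comparisons and on all 3 scales. Over all genes, 15.0% were higher on all 3 scales in the combination and 14.1% in anti-CD27. Eif2ak2 encodes PKR, the kinase that senses double-stranded RNA and is induced by interferon. It was at 6.50, 6.37 and 6.26 in the combination, 6.51, 6.38 and 6.51 in anti-CD27 and 3.25, 3.42 and 3.26 in anti-PD-1/L1. Each anti-PD-1/L1 value lay under the mean of the background controls on its array, and the difference is therefore also given as a bound. The bound sets the level on each anti-PD-1/L1 array at the mean of its background controls where that is higher. With that mean as the floor it gives at least 4.96-fold for the combination and at least 5.28-fold for anti-CD27, and was not itself tested. The mean of these controls is not a limit of detection. On anti-PD-1/L1 arrays the median of all genes averaged 3.97, and the 95th percentile of the background controls 8.27. That percentile averaged 6.83 on combination arrays and 6.935 on anti-CD27 arrays, above the Eif2ak2 levels there. limma's test was of the differences without the bound, 3.07 ± 0.08 (adjusted p = 3.08e-08) and 3.15 ± 0.08 (adjusted p = 3.41e-08). Eif2ak1, the kinase HRI that responds to lack of heme and to mitochondrial stress, was at 7.38, 7.34 and 7.20 in the combination, 7.25, 7.31 and 7.25 in anti-CD27 and 5.39, 5.32 and 5.06 in anti-PD-1/L1. It was 2.05 ± 0.09 higher in the combination (4.14-fold, adjusted p = 3.37e-07) and 2.01 ± 0.09 higher in anti-CD27 (4.03-fold, adjusted p = 4.07e-07). Eif2ak3, the endoplasmic reticulum kinase PERK, was at 4.46, 4.72 and 4.65 in anti-PD-1/L1, below all other arrays, and was 0.77 ± 0.07 higher in the combination and 0.66 ± 0.07 higher in anti-CD27. Eif2ak4, the amino acid sensor GCN2, was dim everywhere, at 4.20, 4.20 and 4.21 in the combination, 4.20, 4.20 and 4.29 in anti-CD27 and 3.87, 3.91 and 3.97 in anti-PD-1/L1. Its anti-PD-1/L1 arrays were under the mean of their background controls, and the bounds with that floor were at least 1.10-fold and at least 1.12-fold.

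Of eIF2, the complex that those kinases act on, the genes of the beta and gamma subunits were measured. Eif2s2 was at 5.91, 5.57 and 5.35 in anti-PD-1/L1, below its other 6 arrays, and was 0.98 ± 0.13 higher in the combination (adjusted p = 0.000151) and 0.69 ± 0.13 higher in anti-CD27 (adjusted p = 0.00122). Eif2s3x, the X-linked gamma subunit, was at 8.62, 8.70 and 8.52 in the combination, 8.28, 8.44 and 8.47 in anti-CD27 and 8.46, 7.71 and 7.78 in anti-PD-1/L1. Replicate 1 of anti-PD-1/L1 lay within the range of anti-CD27. The difference was 0.63 ± 0.18 for the combination (adjusted p = 0.0109) and 0.42 ± 0.18 for anti-CD27 (adjusted p = 0.0607, or 0.000232 without that replicate). Eif2s3y, the Y-linked copy, was at 5.60, 5.51 and 5.49 in the combination, 5.51, 5.54 and 5.71 in anti-CD27 and 5.51, 4.89 and 4.59 in anti-PD-1/L1, so that the groups overlapped. It was called higher by 0.54 ± 0.20 in the combination and by 0.59 ± 0.20 in anti-CD27, but not after quantile normalization (adjusted p = 0.128 and 0.081). Leaving out anti-PD-1/L1 replicate 2 or 3 or any 1 combination array ended the first call (adjusted p up to 0.105), and leaving out replicate 2 or 3 of anti-PD-1/L1 or of anti-CD27 ended the second (adjusted p up to 0.078).

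The eIF2B exchange factor gave a mixed picture. Eif2b3, its gamma subunit, was at 5.18, 5.15 and 5.31 in the combination, 5.06 on each anti-CD27 array and 4.60, 4.71 and 4.72 in anti-PD-1/L1. It was 0.54 ± 0.06 higher in the combination (adjusted p = 6.17e-05) and 0.38 ± 0.06 higher in anti-CD27 (adjusted p = 0.000457), on all 3 scales. Eif2b5, the catalytic epsilon subunit, was at 6.41, 6.22 and 6.38 in the combination, 6.16 on each anti-CD27 array and 5.93, 5.79 and 5.86 in anti-PD-1/L1, in that order with no overlap. It was called higher by 0.48 ± 0.06 and by 0.30 ± 0.06, but quantile normalization took these to 0.07 and, for anti-CD27, to the opposite sign at -0.04. Eif2b1, the alpha subunit, was at 6.40, 6.58 and 6.44 in the combination, 6.28, 6.29 and 6.29 in anti-CD27 and 6.45, 5.74 and 5.96 in anti-PD-1/L1. Its difference of 0.42 ± 0.15 for the combination was -0.01 after quantile normalization, and it did not pass once anti-PD-1/L1 replicate 2 or 3 or any 1 combination array was left out (highest adjusted p = 0.104). Its difference of 0.24 ± 0.15 for anti-CD27 did not pass, or was 0.43 without anti-PD-1/L1 replicate 1 (adjusted p = 0.0018). Eif2b2 and Eif2b4 did not pass on the deposited scale, with differences of -0.23 ± 0.11 and 0.12 ± 0.06 for the combination. After quantile normalization Eif2b2 passed at -0.72 for the combination (adjusted p = 1.72e-05) and -0.68 for anti-CD27 (adjusted p = 2.63e-05). Relative to the median of all genes Eif2b4 passed at 0.37 (adjusted p = 0.000996) and 0.35 (adjusted p = 0.00163). Without anti-PD-1/L1 replicate 3, Eif2b2 passed at -0.34 for the combination (adjusted p = 0.0133) and -0.38 for anti-CD27 (adjusted p = 0.00855), and Eif2b4 at 0.16 for the combination (adjusted p = 0.0414).

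Eif2a and Eif2d encode factors that can deliver transfer RNA without eIF2. Eif2a was at 6.98, 6.99 and 6.70 in the combination, 6.65, 6.67 and 6.74 in anti-CD27 and 6.54, 5.85 and 5.79 in anti-PD-1/L1, where every array was below the others. It was 0.83 ± 0.18 higher in the combination (adjusted p = 0.00325) and 0.63 ± 0.18 higher in anti-CD27 (adjusted p = 0.0136), calls that quantile normalization ended (adjusted p = 0.0608 and 0.177) and that for anti-CD27 also ended once anti-PD-1/L1 replicate 2 or 3 was left out (highest adjusted p = 0.0521). Eif2d lay between 5.46 and 5.66 on all 9 arrays, with the identical value 5.4981 on arrays of every group, and did not pass on the deposited scale. On the other scales it passed in opposite directions, at -0.20 for the combination and -0.22 for anti-CD27 after quantile normalization (adjusted p = 0.0181 and 0.0114) and at 0.31 and 0.24 relative to the median of all genes (adjusted p = 0.00146 and 0.00579).

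The eIF4 genes did not share 1 direction or size of difference. Genes for the cofactors and scaffolds that work with eIF4A, namely Eif4b, Eif4h, Eif4g2 and Eif4g3, were higher than in anti-PD-1/L1 in both comparisons and on all 3 scales. Eif4b was at 7.05, 6.61 and 6.54 in anti-PD-1/L1, and was 2.19 ± 0.12 higher in the combination (4.56-fold, adjusted p = 1.23e-06) and 2.36 ± 0.12 higher in anti-CD27 (5.13-fold, adjusted p = 8.11e-07). Eif4h, which like Eif4b stimulates the helicase, was at 8.89, 8.87 and 8.93 in the combination, 8.77, 8.84 and 8.86 in anti-CD27 and 7.82, 7.32 and 6.81 in anti-PD-1/L1. All 6 other arrays were above those of anti-PD-1/L1, by 1.58 ± 0.20 for the combination (adjusted p = 0.000159) and 1.51 ± 0.20 for anti-CD27 (adjusted p = 0.000227). Eif4g2 encodes DAP5, an eIF4G relative that does not bind eIF4E, and was at 8.71, 8.73 and 8.46 in the combination, 8.44, 8.44 and 8.54 in anti-CD27 and 6.99, 6.70 and 6.19 in anti-PD-1/L1. That is 2.01 ± 0.18 higher in the combination (4.03-fold, adjusted p = 2.14e-05) and 1.84 ± 0.18 higher in anti-CD27 (3.59-fold, adjusted p = 3.8e-05). Eif4g3 was at 5.05, 5.21 and 5.11 in anti-PD-1/L1, and was 1.17 ± 0.06 higher in the combination and 1.37 ± 0.06 higher in anti-CD27 (highest adjusted p = 8.92e-07).

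Eif4e and Eif4a1 showed much smaller differences from anti-PD-1/L1, and these turned with the scaling. Eif4e was 0.40 ± 0.08 higher in the combination (adjusted p = 0.00167), but -0.11 after quantile normalization, and 0.07 ± 0.08 higher in anti-CD27 (adjusted p = 0.401), which quantile normalization turned to -0.35 (adjusted p = 0.00382). Eif4a1 was 0.33 ± 0.11 higher in the combination (adjusted p = 0.0212), but -0.08 after quantile normalization, and it did not pass once anti-PD-1/L1 replicate 2 or 3 or combination replicate 1 was left out (highest adjusted p = 0.0692). For anti-CD27 the difference of Eif4a1 was 0.02 ± 0.11, or -0.30 after quantile normalization (adjusted p = 0.00273). Eif4e2, the repressive cap-binding relative, was at 7.29, 7.37 and 7.26 in the combination, 7.09, 7.15 and 7.15 in anti-CD27 and 7.12, 6.70 and 6.49 in anti-PD-1/L1. Its highest anti-PD-1/L1 array overlapped anti-CD27. It was called higher by 0.53 ± 0.14 and by 0.36 ± 0.14, and after quantile normalization neither passed, at 0.03 (adjusted p = 0.813) and -0.06 (adjusted p = 0.641). The second was also lost without any 1 of the 9 arrays but anti-PD-1/L1 replicate 1 (adjusted p up to 0.121). Eif4e3, a further relative, was at 5.52, 5.62 and 5.49 in the combination, 5.45 on each anti-CD27 array and 5.40, 5.13 and 5.17 in anti-PD-1/L1. It was called higher by 0.31 ± 0.08 and by 0.22 ± 0.08, and neither call held after quantile normalization (adjusted p = 0.135 and 0.259). The second also ended once anti-PD-1/L1 replicate 2 or 3 or any 1 anti-CD27 array was left out (highest adjusted p = 0.0818).

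Eif4e1b, a germ cell relative of Eif4e, was near the background on every array, at 3.47, 3.54 and 3.54 in the combination, 3.45, 3.53 and 3.54 in anti-CD27 and 3.78, 4.23 and 4.07 in anti-PD-1/L1. Only 1 of the 3 anti-PD-1/L1 arrays was above the mean of its background controls. The called differences of -0.51 ± 0.10 and -0.52 ± 0.10 did not pass after quantile normalization (adjusted p = 0.272 and 0.202) or relative to the median of all genes (adjusted p = 0.0623 and 0.0567). Eif4a3l1, a copy of the exon junction helicase gene, was at 4.68, 4.55 and 4.59 in the combination, 4.44, 4.34 and 4.68 in anti-CD27 and 5.17, 5.19 and 4.83 in anti-PD-1/L1. Every anti-PD-1/L1 array was above the others. Its difference was -0.45 ± 0.12 in the combination (adjusted p = 0.00708, or 0.178 relative to the median of all genes) and -0.58 ± 0.12 in anti-CD27 (adjusted p = 0.00211), and near-identical copies of this gene may share its signal.

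The 2 inhibitors of eIF4E went opposite ways. Eif4ebp1 was at 5.23, 5.42 and 5.46 in the combination, 5.35, 5.42 and 5.38 in anti-CD27 and 5.83, 5.90 and 5.79 in anti-PD-1/L1, with the anti-PD-1/L1 arrays highest. Its difference was -0.47 ± 0.07 for the combination (0.722-fold, adjusted p = 0.000303) and -0.46 ± 0.07 for anti-CD27 (0.727-fold, adjusted p = 0.000375), on all 3 scales. Eif4ebp2 was at 7.86, 7.93 and 7.80 in the combination, 8.07, 7.90 and 7.92 in anti-CD27 and 7.14, 7.18 and 7.08 in anti-PD-1/L1, with the anti-PD-1/L1 arrays lowest. It was higher by 0.73 ± 0.06 in the combination (1.66-fold, adjusted p = 2.05e-05) and by 0.83 ± 0.06 in anti-CD27 (1.78-fold, adjusted p = 1.24e-05), also on all 3 scales. Eif4enif1 was at 6.51, 6.45 and 6.36 in the combination, 6.42, 6.36 and 6.36 in anti-CD27 and 5.67, 5.42 and 5.67 in anti-PD-1/L1. It was higher by 0.85 ± 0.08 and by 0.80 ± 0.08 (highest adjusted p = 3.69e-05), with no overlap with anti-PD-1/L1.

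**Figure D5:**
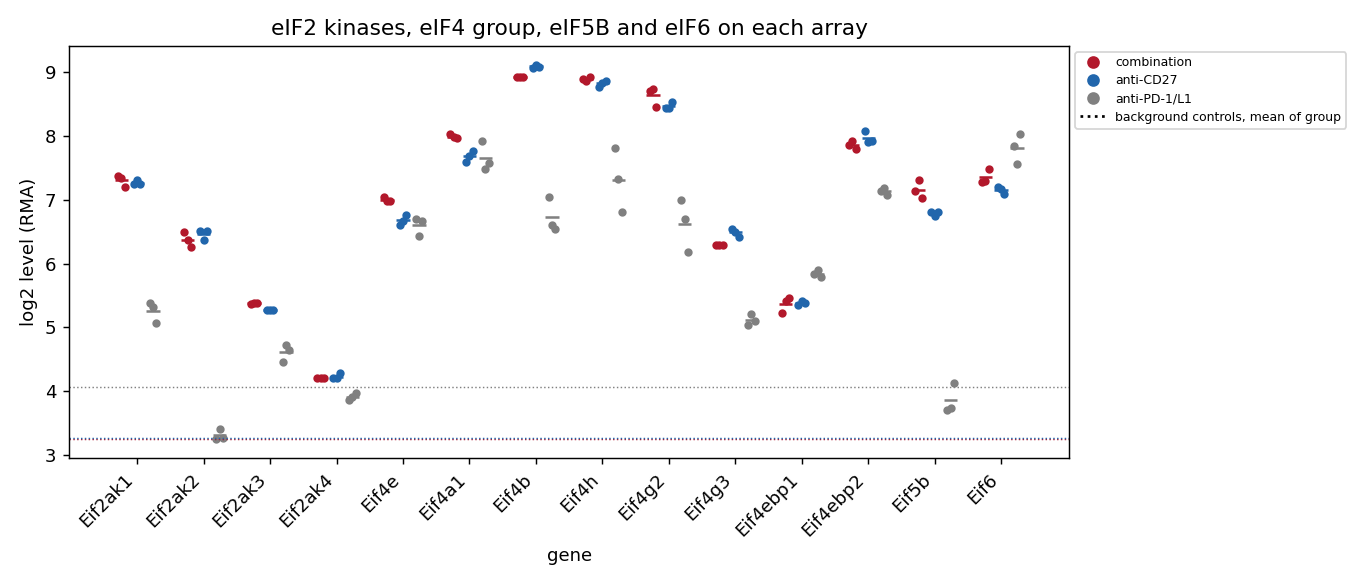
Points are the log2 levels of the eIF2 kinases, 6 eIF4 genes, 2 eIF4E inhibitors, Eif5b and Eif6 on each of the 9 arrays, short lines the group means, and dotted lines the mean of the background controls in each group. The anti-PD-1/L1 arrays of Eif2ak2 lie under their own background line, while those of Eif4ebp1 lie above both other groups.

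Late-acting factors differed in both directions. Eif5b was at 3.71, 3.74 and 4.13 in anti-PD-1/L1, each under the mean of the background controls on its own array. Its bound with that mean as the floor, not itself tested, was at least 8.55-fold higher in the combination and at least 6.62-fold higher in anti-CD27. The tested differences without the bound were 3.30 ± 0.12 (adjusted p = 1.04e-07) and 2.93 ± 0.12 (adjusted p = 2.1e-07). Eif6 was at 7.28, 7.29 and 7.48 in the combination, 7.20, 7.17 and 7.10 in anti-CD27 and 7.85, 7.56 and 8.02 in anti-PD-1/L1. The anti-PD-1/L1 arrays were the highest, and the difference was -0.46 ± 0.11 in the combination (adjusted p = 0.0054, or 0.151 relative to the median of all genes) and -0.66 ± 0.11 in anti-CD27 (adjusted p = 0.000801), the second on all 3 scales. Eif5a was higher by 0.37 ± 0.11 in the combination (adjusted p = 0.0153), a call lost after quantile normalization (adjusted p = 0.0677) and without combination replicate 3 (adjusted p = 0.057), and its difference of 0.10 ± 0.11 in anti-CD27 did not pass. Eif5a2, its paralog, was at 5.70, 5.52 and 5.51 in the combination, 5.45, 5.44 and 5.49 in anti-CD27 and 5.65, 5.51 and 5.51 in anti-PD-1/L1, and passed in neither comparison on the deposited scale. After quantile normalization it passed as lower in both, at -0.26 (adjusted p = 0.00661) and -0.32 (adjusted p = 0.00217), and relative to the median of all genes as higher in the combination, at 0.27 (adjusted p = 0.0079).

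Eif1a was higher by 0.61 ± 0.12 in the combination than in anti-PD-1/L1 (adjusted p = 0.00141), a call that quantile normalization ended (0.16, adjusted p = 0.185). In anti-CD27 its difference was 0.27 ± 0.12 (adjusted p = 0.0615), or 0.40 without anti-PD-1/L1 replicate 1 (adjusted p = 0.00574). Eif1ax and Eif1b were called lower in anti-CD27, with differences of -0.23 ± 0.08 (adjusted p = 0.0245) and -0.18 ± 0.07 (adjusted p = 0.0414). The other scales disagreed. After quantile normalization they passed as lower, at -0.65 (adjusted p = 3.13e-05) and -0.60 (adjusted p = 7.19e-05). Relative to the median of all genes they stood at 0.03 and 0.08, on the other side of 0. On the deposited scale, leaving out anti-PD-1/L1 replicate 1 or anti-CD27 replicate 1 or 2 ended both calls (adjusted p up to 0.0878 for Eif1ax and 0.134 for Eif1b). That of Eif1b also ended without anti-CD27 replicate 3 or combination replicate 1 or 2. In the combination neither passed on the deposited scale, with differences of 0.10 ± 0.08 for Eif1ax (0.17, adjusted p = 0.0474, without anti-PD-1/L1 replicate 1) and 0.00 ± 0.07 for Eif1b, but they passed as lower after quantile normalization, at -0.41 and -0.50, and as higher relative to the median of all genes, at 0.36 (adjusted p = 0.00385) and 0.26 (adjusted p = 0.0112). Eif1ad, with 0.14 in the combination and 0.11 in anti-CD27, passed only relative to that median, at 0.40 and 0.36 (adjusted p = 0.00383 and 0.00634).

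The 5 shared probe sets were tested in a fit over all 65956 transcript probe sets. The probe set of Ankhd1 and Eif4ebp3, another inhibitor of eIF4E, was at 6.91, 6.88 and 6.80 in the combination, 7.06, 6.93 and 7.06 in anti-CD27 and 4.67, 4.55 and 4.91 in anti-PD-1/L1. It was 2.15 ± 0.09 higher in the combination and 2.31 ± 0.09 higher in anti-CD27 (highest adjusted p = 5.01e-07), and which gene gave the signal cannot be told apart. The probe set of Eif4a3, the helicase of the exon junction complex, and Gm5576 was higher by 0.93 ± 0.12 and 0.63 ± 0.12, that of Eif3j1 and Eif3j2 by 0.68 ± 0.11 and 0.52 ± 0.11, and that of Eif5, the GTPase activator of eIF2, and Snora28 by 0.53 ± 0.13 and 0.52 ± 0.13 (highest adjusted p = 0.00871). The probe set of Eif4a2 with Snord2 and Snora81 did not pass, with differences of 0.02 ± 0.10 for the combination and 0.19 ± 0.10 for anti-CD27. Between the combination and anti-CD27 none of the 5 passed (smallest adjusted p = 0.584, with 1 at an unadjusted p under 0.05). The shared probe sets were not put on the other 2 scales, so whether their calls depend on the scaling was not tested. The share of the 65956 probe sets called in this fit is not given here.

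Promoter sequence was compared because members differ in size and direction although they serve 1 process. The RefSeq promoter table (GRCm38.p6) held 36 of the 47 genes, and the 250 bases before each start were searched on both strands for CACGTG, the E-box read by MYC family factors, and for CCGGAAG, a core read by ETS factors. The letters of neither motif occur within the other. CACGTG was found in 8 of the 36 (22.2%), namely Eif1b, Eif3f, Eif3k, Eif4a1, Eif4h, Eif4e, Eif5a and Eif5a2, against 6.86% of 27025 genes. CCGGAAG was found in 11 of the 36 (30.6%), against 7.83% of genes. Among these, Eif3c, Eif3d, Eif3l and Eif4ebp2 were higher than anti-PD-1/L1 on all 3 scales in both comparisons, and Eif3m in anti-CD27 alone. Eif1ad, Eif1ax, Eif1b, Eif4e2, Eif5a and Eif5a2 also carry it and were not called on all 3 scales in either comparison. Genes with CACGTG had a median difference between the combination and anti-CD27 of 0.15, and those without it 0.12, while against anti-PD-1/L1 the medians were 0.35 and 0.75 for the combination. For CCGGAAG the medians between the combination and anti-CD27 were 0.18 with it and 0.07 without, and against anti-PD-1/L1 0.46 and 0.77 for the combination. These are descriptions of letters, not of binding. Shown with the match in capitals, which reads CTTCCGG where it lies on the other strand, are Eif4a1 (chr11:69672424-69672673, minus strand) and Eif4h (chr5:134639410-134639659, minus strand), which carry CACGTG and differed in size, and Eif3c (chr7:126566367-126566616, minus strand), Eif3d (chr15:77970825-77971074, minus strand) and Eif3l (chr15:79074973-79075222, plus strand), which carry CCGGAAG and were higher on all 3 scales.
Eif4a1: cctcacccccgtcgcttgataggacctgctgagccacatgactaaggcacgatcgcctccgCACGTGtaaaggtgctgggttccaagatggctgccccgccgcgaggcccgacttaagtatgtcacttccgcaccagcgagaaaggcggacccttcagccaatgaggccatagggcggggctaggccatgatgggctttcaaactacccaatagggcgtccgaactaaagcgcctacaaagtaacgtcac
Eif4h: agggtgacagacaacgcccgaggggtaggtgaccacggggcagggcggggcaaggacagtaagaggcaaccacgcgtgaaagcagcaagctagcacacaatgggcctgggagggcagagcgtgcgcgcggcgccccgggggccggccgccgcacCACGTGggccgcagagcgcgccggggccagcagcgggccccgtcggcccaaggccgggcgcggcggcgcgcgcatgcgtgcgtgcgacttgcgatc
Eif3c: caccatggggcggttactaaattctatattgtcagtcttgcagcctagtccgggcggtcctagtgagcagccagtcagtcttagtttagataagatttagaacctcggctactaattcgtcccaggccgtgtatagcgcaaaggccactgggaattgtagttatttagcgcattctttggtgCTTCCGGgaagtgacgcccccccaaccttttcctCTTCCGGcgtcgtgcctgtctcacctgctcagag
Eif3d: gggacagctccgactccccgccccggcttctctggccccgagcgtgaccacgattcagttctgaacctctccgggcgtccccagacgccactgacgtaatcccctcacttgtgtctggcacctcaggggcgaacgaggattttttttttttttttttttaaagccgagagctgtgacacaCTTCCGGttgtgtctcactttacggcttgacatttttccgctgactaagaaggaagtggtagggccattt
Eif3l: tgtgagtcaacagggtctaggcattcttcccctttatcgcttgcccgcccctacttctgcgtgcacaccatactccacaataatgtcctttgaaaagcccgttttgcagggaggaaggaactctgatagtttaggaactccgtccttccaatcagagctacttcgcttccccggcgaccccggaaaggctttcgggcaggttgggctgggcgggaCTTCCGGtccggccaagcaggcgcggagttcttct

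Other genes of the pathway were taken from 2 lists, of which 28 of 30 partners and regulators of initiation and 12 of 13 genes of elongation, termination and recycling were measured. Between the combination and anti-CD27, 3 of these 40 genes were called, all higher, where 1.85% of all genes were called in either direction. Rheb, the GTPase that switches on mTOR, was at 6.79, 6.73 and 6.65 in the combination, 6.29, 6.24 and 6.38 in anti-CD27 and 6.88, 6.62 and 6.65 in anti-PD-1/L1. It rose by 0.42 ± 0.08 (1.34-fold, adjusted p = 0.0406). Eef1e1, a part of the aminoacyl transfer RNA synthetase complex, was at 7.57, 7.74 and 7.57 in the combination, 7.23, 7.24 and 7.19 in anti-CD27 and 7.61, 7.35 and 7.46 in anti-PD-1/L1, and rose by 0.41 ± 0.08 (adjusted p = 0.0396). Larp1, which binds messenger RNAs of the translation machinery, was at 8.32, 8.40 and 8.35 in the combination, 8.10, 8.10 and 8.15 in anti-CD27 and 5.58, 5.55 and 5.58 in anti-PD-1/L1, and rose by 0.24 ± 0.05 (adjusted p = 0.0418), but not after quantile normalization (0.14, adjusted p = 0.381). Each of the 3 calls was lost without any 1 of the 6 combination or anti-CD27 arrays (adjusted p up to 0.195).

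Against anti-PD-1/L1, 21 of the 28 partners were higher and 1 lower in the combination, and 19 higher and 3 lower in anti-CD27, beside 19.2% of all genes higher and 53.1% lower in the combination and 17.3% and 53.5% in anti-CD27. On all 3 scales 20 were higher in the combination and 18 in anti-CD27, where 15.0% and 14.1% of all genes were, with none lower. Pabpc1, the main poly(A)-binding protein, was 3.09 ± 0.17 higher in the combination and 3.00 ± 0.17 higher in anti-CD27 (adjusted p = 1.43e-06 and 1.81e-06), with 8.31, 8.14 and 7.54 in anti-PD-1/L1 against 10.97 or more on all other arrays. Larp1 was 2.79 ± 0.05 and 2.55 ± 0.05 higher, and Ddx3x, a helicase that helps scanning, 1.97 ± 0.16 and 1.89 ± 0.16 higher (highest adjusted p = 1.92e-05). Tsc2, which restrains Rheb, was 1.56 ± 0.05 and 1.59 ± 0.05 higher, and Mknk2, a kinase of eIF4E, 1.51 ± 0.09 and 1.64 ± 0.09 higher. Of the 12 later-acting genes, 6 were higher and 3 lower in the combination, and 5 higher and 3 lower in anti-CD27, beside the same shares of all genes. On all 3 scales 6 were higher and 0 lower in the combination, and 3 higher and 1 (Eef1b2) lower in anti-CD27. Eef2, the translocation factor, was at 11.94, 11.95 and 11.93 in the combination, 11.84, 11.91 and 11.85 in anti-CD27 and 10.76, 10.00 and 9.62 in anti-PD-1/L1, and was higher by 1.81 ± 0.23 in the combination and by 1.74 ± 0.23 in anti-CD27. Eef1a1, which delivers transfer RNA, differed by -0.02 ± 0.06 and -0.01 ± 0.06 and did not pass.

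Some values were identical across the arrays of a group. Eif4b and Eif4g3 had 1 value on all 3 combination arrays, Eif2b3, Eif2b4, Eif2b5, Eif2ak3, Eif3b and Eif4e3 had 1 on all 3 anti-CD27 arrays, and Eif2d had 1 on all 3 anti-PD-1/L1 arrays. Over all genes this occurred for 5.53% of genes on combination arrays, 8.61% on anti-CD27 arrays and 0.713% on anti-PD-1/L1 arrays. Where it occurs, the spread between mice is understated for that gene, and the SD of those genes in that group was 0. A further 8 genes had 2 of 3 values equal on combination arrays, 10 on anti-CD27 arrays and 2 on anti-PD-1/L1 arrays. Identical values also recurred between groups. Arrays of all 3 groups shared 5.4981 for Eif2d, 5.3952 for Eif2b4 and 5.8543 for Eif1ad, and combination and anti-CD27 arrays shared 4.2033 for Eif2ak4. The part of such ties in the differences between groups was not tested.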

How the data were processed

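Transcripts were measured on 9 one-colour whole-transcript arrays, 1 per mouse, with 50 ng of RNA labelled, per the labels' protocols. The authors deposited log2 values, 1 per probe set and array. The submitters' processing notes name RMA and oligo 1.38.0. RMA in general corrects background, normalizes between arrays and combines probes, but the deposited gene values did not share 1 distribution: the SD over all genes averaged 2.26 on combination arrays, 2.23 on anti-CD27 arrays and 2.04 on anti-PD-1/L1 arrays. The genome build of the array is not given in the sources used here. Names came from the platform's annotation: of 65956 transcript probe sets, 30604 named 1 gene, 2146 several and 33206 none, and 6732 more were controls. Where a gene had several probe sets, the brightest by its average over all arrays stood for it.

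limma 3.58.1 in R 4.3.3 was fitted to 30142 genes on all 9 arrays with 1 mean per group (lmFit, eBayes, 6 residual degrees of freedom, two-sided, Benjamini-Hochberg over all genes, called at adjusted p under 0.05, no minimum fold, no filter on level). Single values per array were compared by exact permutation in scipy 1.17.1. Alternatives were quantile normalization, differences relative to the median of all genes, leaving out the dimmer 50% of genes, the mean of a gene's probe sets, the 6 arrays of a comparison alone, array weights, a prior variance with a trend on level, replicate numbers as a block, each array left out, and, chosen after seeing the data, a fit over all transcript probe sets. The test was checked on simulated data. The members, the complexes and the other lists were chosen with earlier results of these data known. Values of every array are given for up to 3 called genes per complex and comparison with the largest difference, or the largest where none was called, and for genes fixed by name (Eif2s3x, Eif2s3y, Eif4e, Eif4a1, Eif4ebp1, Eif4ebp2, Eif5a, Eif6, Eif2ak2 and Eif2ak4). Precision is limited by 3 mice a group. Nothing but the mice marks the samples of a group as separate.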

Additional observations from a re-analysis of the deposited data

How the results depend on the processing

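Leaving out 1 array at a time gave, for the combination versus anti-CD27, 0 to 4 genes called higher and 0 to 0 lower, 25 to 29 with every array above and 3 to 5 below. For the combination versus anti-PD-1/L1 it gave 29 to 35 higher, 6 to 7 lower, 30 to 36 above and 7 to 7 below, and for anti-CD27 versus anti-PD-1/L1 22 to 31, 6 to 9, 24 to 33 and 10 to 10. The shares of all genes in these fits, and in the fit without the dimmer genes, are not given here. In the combination versus anti-CD27 the genes called higher were 2 without the dimmer genes, 8 in the 6 arrays alone and 10 with array weights, the genes called lower were 1 in each of the last 2, and 7 had every array below after quantile normalization. In the combination versus anti-PD-1/L1, quantile normalization gave 21 higher, 11 lower and 11 below, and setting differences relative to the median gave 1 lower and 2 below. In anti-CD27 versus anti-PD-1/L1, quantile normalization gave 13 lower, and relative to the median there were 4 lower, 37 above and 3 below. Among genes called as deposited, the sign changed after quantile normalization for Eif2b1 (-0.0053), Eif3j2 (-0.31), Eif4a1 (-0.076) and Eif4e (-0.11) in the combination versus anti-PD-1/L1 and for Eif2b5 (-0.042), Eif3j2 (-0.22) and Eif4e2 (-0.055) in anti-CD27 versus anti-PD-1/L1. Relative to the median, it changed for Eif1ax (0.025) and Eif1b (0.075) in anti-CD27 versus anti-PD-1/L1. Among genes not called as deposited, quantile normalization turned the sign of 8 of 47 in the combination versus anti-CD27, 7 of 8 in the combination versus anti-PD-1/L1 and 7 of 12 in anti-CD27 versus anti-PD-1/L1, and setting differences relative to the median that of 0, 1 and 2. The cause of these changes was not tested. The mean of a gene's probe sets and a prior variance with a trend on level changed no call of the 47 genes.

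Samples with the same replicate number did not deviate together (correlations from -0.198 to 0.162), so the numbers were not taken as pairs. With the replicate number as a block, 0 genes were called in the combination versus anti-CD27, 33 higher and 6 lower in the combination versus anti-PD-1/L1, and 27 higher and 7 lower in anti-CD27 versus anti-PD-1/L1, where Eif1b no longer passed (adjusted p = 0.0698). Against anti-PD-1/L1 a level close to the background controls limits Eif2ak2, Eif2ak4, Eif4e1b and Eif5b to bounds or weak calls, and 3 arrays a group limit the rest.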

Other observations

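Pseudogenes of initiation factors and Argonaute genes with older Eif2c symbols were outside the set and were read from the fit over all transcript probe sets. The probe set of Eif4a-ps4, a pseudogene named for eIF4A, averaged 9.60 ± 0.07 (SD, n = 3) on combination arrays, 9.08 ± 0.15 on anti-CD27 arrays and 9.02 ± 0.41 on anti-PD-1/L1 arrays, and its difference of 0.51 ± 0.18 between the combination and anti-CD27 did not pass (adjusted p = 0.411). Eif1-ps3 averaged 8.38 ± 0.01, 8.46 ± 0.05 and 7.54 ± 0.24, and was 0.84 ± 0.11 higher in the combination than in anti-PD-1/L1 (adjusted p = 0.000206) and 0.91 ± 0.11 higher in anti-CD27 (adjusted p = 0.000145). Eif3s6-ps2, named for eIF3e, was higher by 1.00 ± 0.18 and 1.02 ± 0.18 (highest adjusted p = 0.00115), beside 0.84 ± 0.14 and 0.88 ± 0.14 for Eif3e itself. Probes of a pseudogene may read RNA of the parent gene, and which of them gave the signal cannot be told apart. The probe set of Ago4, an Argonaute gene, averaged 2.81 ± 0.03 in the combination and 2.83 ± 0.02 in anti-CD27, under the mean of the background controls of both groups.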
